A study of Mus musculus with 6 samples.

Results

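The carboxylesterase family of the mouse liver was followed here through 10 of its genes, Ces1b, Ces1c, Ces1d, Ces1e, Ces1f, Ces1g, Ces2a, Ces2c, Ces2e and Ces3a. Members were taken as the array probes whose RefSeq accession belongs to 1 of these genes, which gave 10 probes, 1 for each gene, of 56605 probes in all. Livers came from male mice, described as 12 weeks old when put on the diets, and were taken after 28 days of feeding. Of these mice, 3 received regular granulated chow (control) and 3 received chow made of 75% regular food and 25% soy bean powder (soy). The strain is not given in the sources used here. RNA from whole liver tissue of each mouse was hybridized to its own 1-colour Agilent array, so that each value is a sum over all cell types, and fewer cells of a type cannot be told apart from less RNA per cell. The spots well above background numbered 36366 to 38163 on the control arrays and 31308 to 32498 on the soy arrays, of 59305. With 3 arrays in each group, their number sets how precise a value can be.

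Carboxylesterases are serine hydrolases that cleave ester, thioester and amide bonds, and most of the liver forms are held in the lumen of the endoplasmic reticulum. They hydrolyse ester drugs and other xenobiotics, and several of them also act on triacylglycerols, cholesteryl esters and acylcarnitines. The mouse genes arose by tandem duplication, so that paralogues lie side by side on chromosome 8 and resemble each other in sequence. In the RefSeq gene order, Ces1a to Ces1h follow each other in a first group that ends with Ces5a, and Ces2a to Ces2h, Ces3a, Ces3b and Ces4a form a second group, with 158 other genes between Ces5a and Ces2a. Ces1d lies between Ces1c and Ces1e, with 1 pseudogene (Gm45910) between it and Ces1c.

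How close neighbours can be is seen in the bases before the start of Ces1b and Ces1c, shown as the most alike pair of the 7 members that were matched in the RefSeq promoter table (build GRCm38.p6, minus strand). Over 250 bases before the start the pair was 76.2% identical, against a median of 46.7% over the 21 pairs of members. The stretch from base -250 to base -101, counted from the start site, is printed for each gene, at chr8:93080041-93080190 for Ces1b and chr8:93131384-93131533 for Ces1c, with their longest shared run, of 58 bases, in capitals.
Ces1b: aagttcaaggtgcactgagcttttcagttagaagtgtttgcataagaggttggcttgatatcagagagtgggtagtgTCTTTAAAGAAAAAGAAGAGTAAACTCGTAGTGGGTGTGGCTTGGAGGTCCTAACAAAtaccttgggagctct
Ces1c: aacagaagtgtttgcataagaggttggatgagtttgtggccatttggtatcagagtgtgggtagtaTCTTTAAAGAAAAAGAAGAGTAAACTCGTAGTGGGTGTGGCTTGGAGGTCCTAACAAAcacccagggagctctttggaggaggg
The probes lie in the transcripts, not in these windows, and probe sequences were not used here. Signal that a probe takes from a paralogue was therefore not tested, and each value below is that of the probe assigned to the gene. Entries for Ces1d, Ces1f and Ces3a were not used here.

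The values are normalized signals on the log2 scale (background corrected, quantile normalized median intensities), and a gene passed with an adjusted p under 0.05 from limma together with a fold change above 1.5 or under 0.66. All 10 members were well above background on all 6 arrays, with no saturated spot and no spot marked as an outlier. Of the 10, 1 passed, Ces1d, which was higher in soy livers, where 0.350% of all probes passed in either direction and 0.208% passed as higher in soy (0.384% of the probes that cleared background on every array). Of the log2 changes of the members 7 were above and 3 below 0, with a median log2 change of 0.24 over the members and -0.01 over all probes, of which 47.6% were above 0. An unadjusted p under 0.05 was found for 3 members, Ces1b, Ces1d and Ces1f, where 11.5% of all probes and 18.1% of those that cleared background on every array had one; these shares are the background for the counts of unadjusted p given for other genes. For 4 members, all of them Ces1 genes that were higher in soy, soy and control ranges were apart, where 18.0% of all probes showed no overlap, 7.75% with higher and 10.3% with lower values in soy. Of the probes that cleared background on every array, as the members did, 23.8% showed no overlap and 11.7% did so with higher values in soy.

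**Figure D1:**
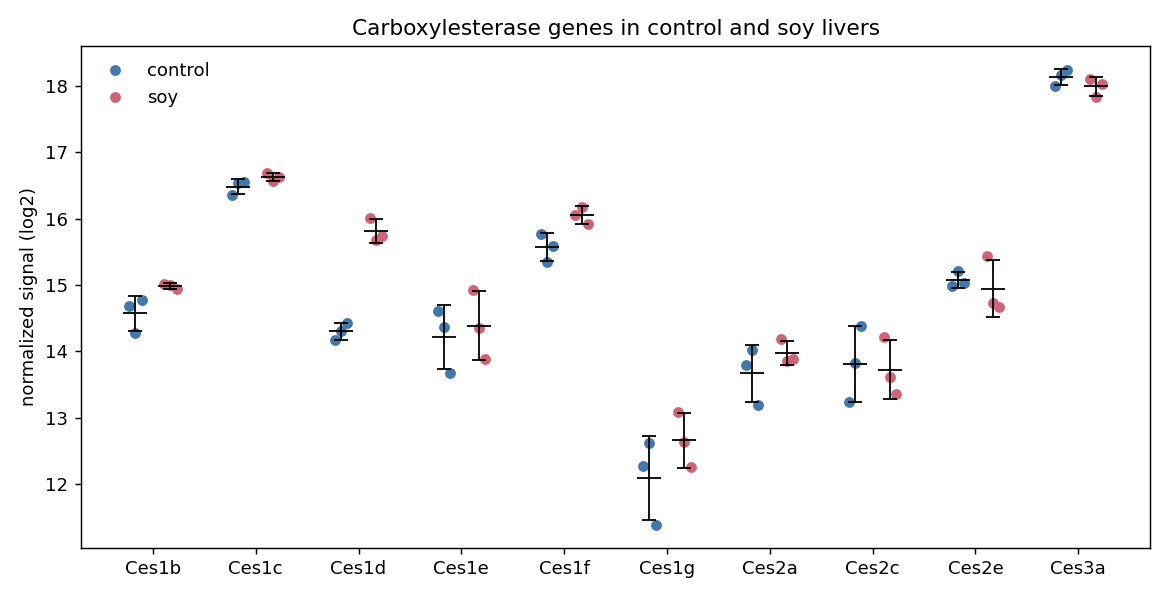
Normalized signal (log2, vertical axis) of each carboxylesterase gene (horizontal axis) on the 3 control and 3 soy arrays, where points are single mice, the dash is the group mean and the bars are its SD. Ces1d rose from 14.30 to 15.81 on average with a wide gap between the groups, while Ces1e, Ces1g, Ces2a, Ces2c, Ces2e and Ces3a overlapped; signals of different probes are not comparable with each other.

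Ces1d (NM_053200), also known as triacylglycerol hydrolase, releases fatty acids from stored triacylglycerol and feeds the assembly of very low density lipoprotein in hepatocytes. Its normalized signal was 14.17, 14.32 and 14.42 in control livers and 16.02, 15.68 and 15.74 in soy livers. Every soy liver lay far above the highest control liver, and the spread within either group was small beside that gap. Ces1d thus rose from a mean of 14.30 ± 0.13 to one of 15.81 ± 0.18 (log2, SD, n = 3). The log2 change was 1.51 (SE 0.13, adjusted p = 0.0101, limma), which is 2.85-fold with a 95% interval of 2.32 to 3.50. Before any normalization, the scanner's median intensity of this spot was 20314 to 22762 in control and 44635 to 61160 in soy livers. Within slide 1, which holds 2 control arrays and 1 soy array, the log2 difference was 1.78, and within slide 3, which holds 1 of each, it was 1.32. With slide as a block the change was 1.58 and did not pass (adjusted p = 0.0799), in a fit to which slide 2, with 1 soy array only, adds nothing. Without soy 3 the change was 1.54 with an adjusted p of 0.0501, and 0.0486 when the other 5 arrays were normalized again.

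The other Ces1 genes were all higher in soy livers by their means, and none of them passed. For Ces1b (NM_001081372) control livers read 14.68, 14.28 and 14.77 and soy livers 15.02, 15.00 and 14.94. The soy livers were close to each other and all lay above the control livers, with a change of 0.41 (SE 0.14, adjusted p = 0.326, limma) that was 0.26 without control 2. Ces1f (NM_144930), another triacylglycerol hydrolase of the liver, read 15.77, 15.35 and 15.58 in control and 16.06, 16.18 and 15.91 in soy. Its groups did not overlap either, and its change was 0.48 (SE 0.14, adjusted p = 0.224, limma), a fold of 1.40 with a 95% interval of 1.12 to 1.74. Ces1c (NM_007954), the esterase that the mouse liver secretes into plasma, read 16.35, 16.53 and 16.56 in control and 16.68, 16.56 and 16.62 in soy. The lowest soy value only just exceeded the highest control value, and the change was 0.14 (SE 0.10, adjusted p = 0.650, limma), with a 95% interval for the fold of 0.94 to 1.30. Without control 1 this change was 0.08. Before any normalization, and so not scaled between arrays, the median intensities of Ces1b, Ces1f and Ces1c overlapped between the groups. They were 20699 to 32430 in control and 27714 to 31891 in soy livers for Ces1b. For Ces1f they were 45570 to 66270 and 61449 to 62743, and for Ces1c 91420 to 104854 and 82773 to 99501.

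Ces1e and Ces1g varied more between mice of a group than between the group means. Ces1e (NM_133660), known as egasyn, binds beta-glucuronidase and keeps it in the endoplasmic reticulum. It read 14.61, 14.37 and 13.68 in control and 14.93, 14.35 and 13.88 in soy. These values overlapped widely, and the change of 0.17 (SE 0.31, adjusted p = 0.875, limma) turned its sign without control 3 (-0.10) or without soy 1 (-0.10). Ces1g (NM_021456), whose loss in mice is known to raise hepatic lipid synthesis, read 12.27, 12.62 and 11.39 in control and 13.09, 12.64 and 12.26 in soy. The groups overlapped, since soy 3 lay below control 1 and control 2, and the change of 0.57 (SE 0.33, adjusted p = 0.569, limma) had a 95% interval from -0.20 to 1.34. It was 0.22 without control 3 and 0.36 without soy 1.

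The Ces2 genes and Ces3a gave no change that passed. Ces2a (NM_133960), a lipid hydrolase of the liver, read 13.80, 14.02 and 13.19 in control and 14.18, 13.86 and 13.88 in soy. Soy 1 lay above all control livers and the others lay within the control range, with a change of 0.30 (SE 0.21, adjusted p = 0.645, limma) that was 0.06 without control 3, 0.20 without soy 1 and 0.48 without control 2. Ces2c (NM_145603), an acylcarnitine hydrolase, read 13.24, 13.82 and 14.38 in control and 14.21, 13.61 and 13.36 in soy, so that all the soy values fell inside the control range. Its change of -0.09 (SE 0.31, adjusted p = 0.941, limma) was 0.68 within slide 1 and -1.03 within slide 3. Ces2e (NM_172759) read 14.99, 15.22 and 15.04 in control and 15.44, 14.73 and 14.68 in soy, with soy 1 above and the other soy livers below every control liver. The change was -0.13 (SE 0.20, adjusted p = 0.847, limma), 0.33 within slide 1 and -0.36 within slide 3. Ces3a (NM_198672) read 18.00, 18.16 and 18.24 in control and 18.11, 17.84 and 18.03 in soy, a change of -0.14 (SE 0.12, adjusted p = 0.693, limma). The 95% interval for its fold was 0.75 to 1.09, and soy 2 alone lay below all control livers. The change was -0.07 without soy 2 and -0.09 without control 3.

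**Figure D2:**
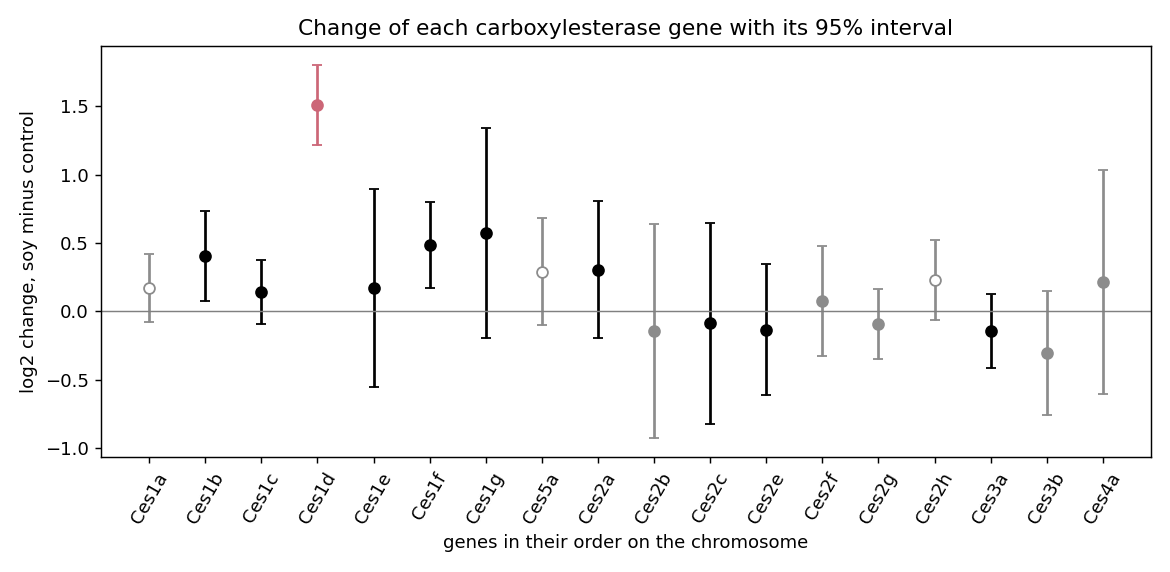
Log2 change (soy minus control, vertical axis) of the 18 carboxylesterase genes on the array, placed in their order on the chromosome, with bars for the 95% interval from limma. Black marks the 10 members with Ces1d in red, grey the other genes, and open circles genes not well above background on every array; Ces1d, at 1.51, stands apart from its neighbours Ces1c (0.14) and Ces1e (0.17).

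Because the Ces1 genes are paralogues in tandem, the change of Ces1d was set against those of the others within each array. The difference between Ces1d and the mean of the other 5 Ces1 members was -0.57, -0.31 and 0.03 in control livers and 0.86, 0.73 and 1.02 in soy livers (log2). It was larger in every soy liver than in any control liver, and rose on average by 1.16, with an exact permutation p of 0.10 (two-sided), the smallest that 3 against 3 arrays allow. When each array was centred on those 5 genes and limma was fitted to all probes, an analysis chosen after seeing the data for the member already known to pass, the same difference of 1.16 had an adjusted p of 0.00742, where 2.09% of all probes passed in that fit. Against single members, Ces1d gained most on Ces3a (1.65), Ces2e (1.64) and Ces2c (1.60) and least on Ces1f (1.03) and Ces1g (0.94). This order was not tested, and it changed when single arrays were left out. Without control 3, Ces1b (0.51) rose more than Ces1g (0.22), and Ces2c changed by 0.20. Of the 9 pairs of Ces1d with another member, 8 showed no overlap between the groups. The pair with Ces1g did overlap (exact permutation p = 0.20). No pair could pass after adjustment, the smallest adjusted p being 0.113. All 9 pairs share Ces1d, whose own groups were already apart (highest control 14.42, lowest soy 15.68). The count therefore largely restates the change of Ces1d, and no share over all probes was computed for this count.

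**Figure D3:**
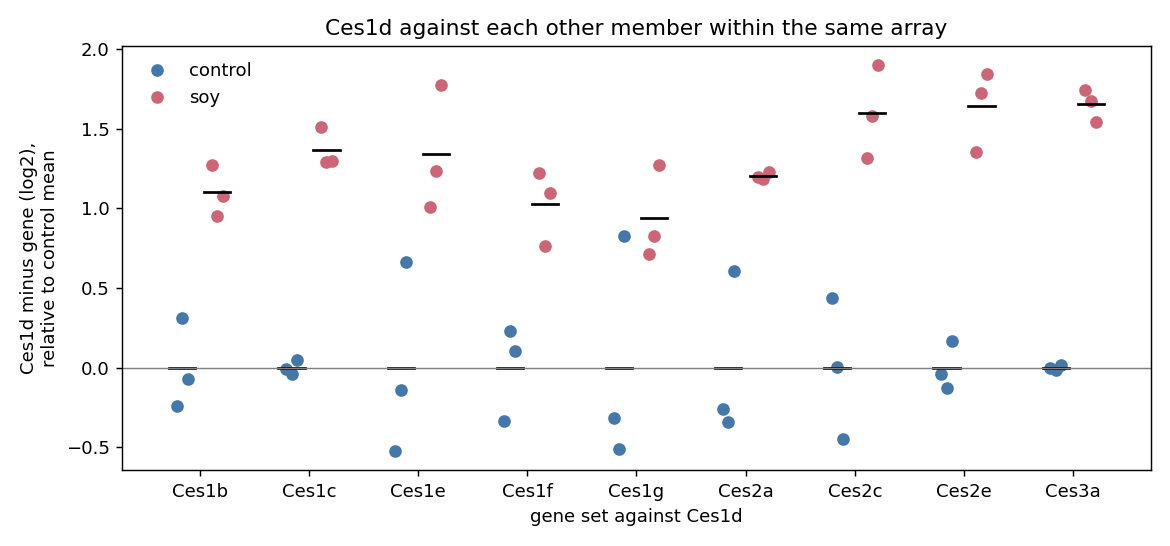
Difference between Ces1d and each other member within the same array (log2, vertical axis), set to 0 at the control mean of each pair, with points for single mice and dashes for group means. The soy arrays lie above the control arrays for every member except Ces1g, where 1 control array reaches into the soy range.

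The Ces1 members as a class were compared with the Ces2 members in the same way. The mean of the 6 Ces1 genes minus that of the 3 Ces2 genes was 0.63, 0.22 and 0.20 in control and 0.69, 1.00 and 0.92 in soy livers. The groups did not overlap (difference 0.52, exact permutation p = 0.10, two-sided), and without Ces1d they did (difference 0.33, p = 0.20, exact). With slide as a block the difference over all Ces1 members was 0.46 (exact permutation p = 0.333). With the replicate block this p was 0.25, the smallest that block allows. Relabeling within blocks leaves few arrangements, so neither p could fall under 0.05. With 1 array left out the difference was 0.44 to 0.66. The exact permutation p was then 0.10 without control 1 and 0.20 without any other array. With limma on arrays centred on the Ces2 members, a fit also chosen after seeing the data, the difference between the classes did not pass (unadjusted p = 0.0804, adjusted p = 1), where 0.920% of all probes passed.

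Spread among mice of the same group was large for part of the family. The control livers spanned 1.23 log2 units for Ces1g, 1.15 for Ces2c, 0.93 for Ces1e and 0.84 for Ces2a, where the median span of all probes well above background was 0.29. They spanned 0.26 for Ces1d, 0.24 for Ces3a and 0.20 for Ces1c. Control 3 deviated from the control mean by -0.54 for Ces1e, -0.70 for Ces1g and -0.48 for Ces2a, and by 0.57 for Ces2c and 0.58 for Ces2b, the carboxylesterase gene before it. Ces1e, Ces1g, Ces2a and Ces2f, picked after their values were seen, shared the sign of their deviation from the group mean on each of the 6 arrays. For Ces2b and Ces2c, a pair also picked after its values were seen, the deviations differed by at most 0.12 on any array and shared their sign on 5 of 6. Control 3 and soy 3 share slide 3, and Ces1e and Ces1g were lowest in their group on both of these arrays. With slide as a block, the change was 0.34 for Ces1e (unadjusted p = 0.0487, adjusted p = 0.448, limma) and 0.74 for Ces1g (unadjusted p = 0.00331, adjusted p = 0.235, limma), and neither passed. The same fit gave 0.45 for Ces2a (unadjusted p = 0.0271, adjusted p = 0.399, limma). For Ces1f it gave 0.43 (unadjusted p = 0.0411, adjusted p = 0.432, limma), and neither of these passed. Besides Ces1d, the remaining members had an unadjusted p of 0.0751 (Ces1b) or more. In this fit 24 of the 56605 probes passed. Its share of all probes with an unadjusted p under 0.05 was not computed, so nothing is drawn from these unadjusted values. The part of slide in the deviations of single mice was not tested further.

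**Figure D4:**
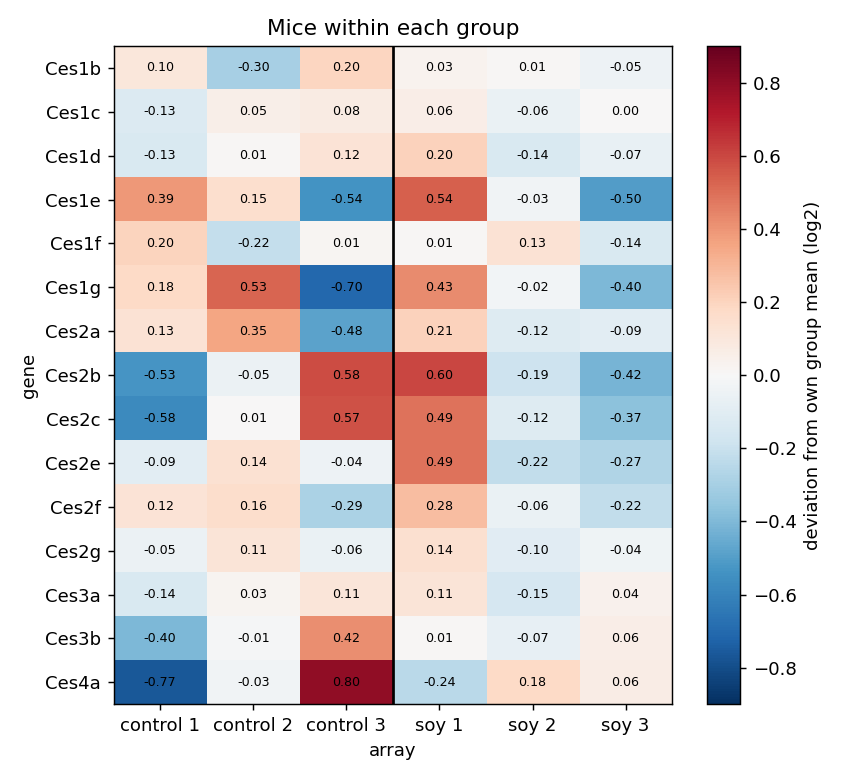
Deviation of each array from its own group mean (log2, colour and printed number) for the 15 carboxylesterase genes that were well above background on all arrays, in chromosomal order, with columns for the 6 arrays. Rows such as Ces1c and Ces3a stay near 0, while Ces1e, Ces1g, Ces2b, Ces2c and Ces4a differ widely between mice of the same group.

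The remaining carboxylesterase genes were examined for the same question. Of the 10 listed, 8 were on the array with a RefSeq accession, and Ces1h and Ces2d-ps were not analysed here. Of these 8, 0 passed with limma and 0 had an unadjusted p under 0.05, and soy and control values overlapped for all of them. Ces3b, next to Ces3a, read 15.46, 15.85 and 16.28 in control and 15.57, 15.49 and 15.62 in soy, a change of -0.30 (SE 0.19, adjusted p = 0.609, limma). Ces2b changed by -0.14 (SE 0.34), Ces2g by -0.09 (SE 0.11) and Ces4a by 0.22 (SE 0.35). The brighter Ces2f probe changed by 0.08 (SE 0.17), and the dim one did not clear background anywhere. The same held for Ces2h and for both Ces5a probes, whereas Ces1a cleared it on 3 control arrays and 1 soy array.

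Enzymes and regulators around the family were taken from lists. A list of 22 genes of neutral lipid and ester hydrolysis also held the epoxide hydrolases Ephx1 and Ephx2 and, as proteins that act on the lipase Pnpla2, Abhd5, G0s2 and Hilpda. By its brightest probe 1 gene of the list passed, with a median change of 0.11 over the list, and none of its ester hydrolases did. The gene that passed was Ephx1 (NM_010145), the microsomal epoxide hydrolase that works on xenobiotics in the same compartment, which rose from 16.23 ± 0.36 to 17.45 ± 0.04 (log2, SD, n = 3) with an adjusted p of 0.0474 (limma) and a change of 1.22 (SE 0.18). Of the list, 15 genes were higher and 7 lower by their means, and 8 of the 22, both epoxide hydrolases among them, had an unadjusted p under 0.05, where all probes gave 11.5% and those clear of background 18.1%. Ephx2, the soluble epoxide hydrolase, changed by 0.51 (SE 0.11, adjusted p = 0.115), Pnpla2, the adipose triglyceride lipase, by -0.47 (SE 0.12, adjusted p = 0.175), and Aadac, an arylacetamide deacetylase of the endoplasmic reticulum, by -0.07 (SE 0.14, adjusted p = 0.886). Of 10 genes that act with lipid hydrolysis in the assembly of very low density lipoprotein, 0 passed with limma and 1 had an unadjusted p under 0.05, with a median change of 0.02. Apob changed by 0.46 (SE 0.18, adjusted p = 0.379, limma) and Mttp, the lipid transfer protein of this pathway, by 0.23 (SE 0.15, adjusted p = 0.617). Of 12 transcription factors known to act on carboxylesterase genes, 0 passed with limma by their brightest probe and 2 had an unadjusted p under 0.05, with a median change of 0.01. Nr1i3, the constitutive androstane receptor, changed by 0.85 (SE 0.16, adjusted p = 0.0877, limma), and of the 18 probes of these factors 1 passed, the other Nr1i3 probe, with a change of 0.87 (SE 0.12, adjusted p = 0.0427). Ppara changed by 0.07 (SE 0.20, adjusted p = 0.929, limma), Nfe2l2 by 0.25 (SE 0.14, adjusted p = 0.549) and Nr1h4, the bile acid receptor, by 0.39 (SE 0.12, adjusted p = 0.261).

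Of the members, 7 were searched for short motifs in the 250 bases before the start, on both strands. Ces1d, Ces1f and Ces3a were not searched, so what follows on members holds for these 7 only and says nothing of Ces1d. The nuclear receptor half-site AGGTCA was found for Ces2a (14.0% of all promoters hold it) and the TATA box TATAAA for Ces1g (12.4%). No member held this half-site as a direct repeat with 1 base between the copies (0.0335%) or the antioxidant core TGACNNNGC (10.2%), which says only that these letters are not in these windows.

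The label of the tissue was borne out by the markers, as all 10 hepatocyte markers, Alb, Ttr and Apoa1 among them, were well above background on all arrays. Of these, 9 were lower in soy by their means (median -0.20), 0 passed with limma and 3 had an unadjusted p under 0.05. Ces1d and Ces1f are also abundant in fat. Of the 6 fat cell markers, Lep and Fabp4 cleared background on all arrays, Cfd and Retn on some, and Adipoq and Plin1 on none. Of these, 5 were lower in soy (median -0.11), the brightest being Fabp4, and their summed signal was 11.82 to 12.05 in control and 11.69 to 11.84 in soy livers (log2). The 8 pancreas markers were all lower in soy (median -0.42), 0 of them passing with limma and 4 with an unadjusted p under 0.05. Their summed signal was 15.16 to 15.69 in control and 14.57 to 14.98 in soy livers, with Cela1 the brightest, and 5 of them were well above background on all arrays. Red cell and neutrophil markers were higher in soy for 5 of 5 genes (median 0.42, 0 passing with limma, 0 with an unadjusted p under 0.05, brightest Hba-a1), with summed signals of 16.92 to 17.45 and 17.07 to 18.11. Kupffer cell markers were higher for 6 of 7 (median 0.15, 0 passing with limma, 0 with an unadjusted p under 0.05, brightest Cd5l). In the lists for endothelial cells, stellate cells, bile duct, intestine, kidney and lung, medians lay between -0.17 and -0.01 and 0 genes passed with limma (1, in the stellate list, had an unadjusted p under 0.05). Their brightest genes were Clec4g, Ecm1, Spp1, Fabp2, Slc22a6 and Ager, and Epcam, Vil1, Umod, Slc12a1, Kap, Sftpc and Sftpb cleared background on none of the arrays. The part of these shifts in the values of the carboxylesterase genes was not tested.

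**Figure D5:**
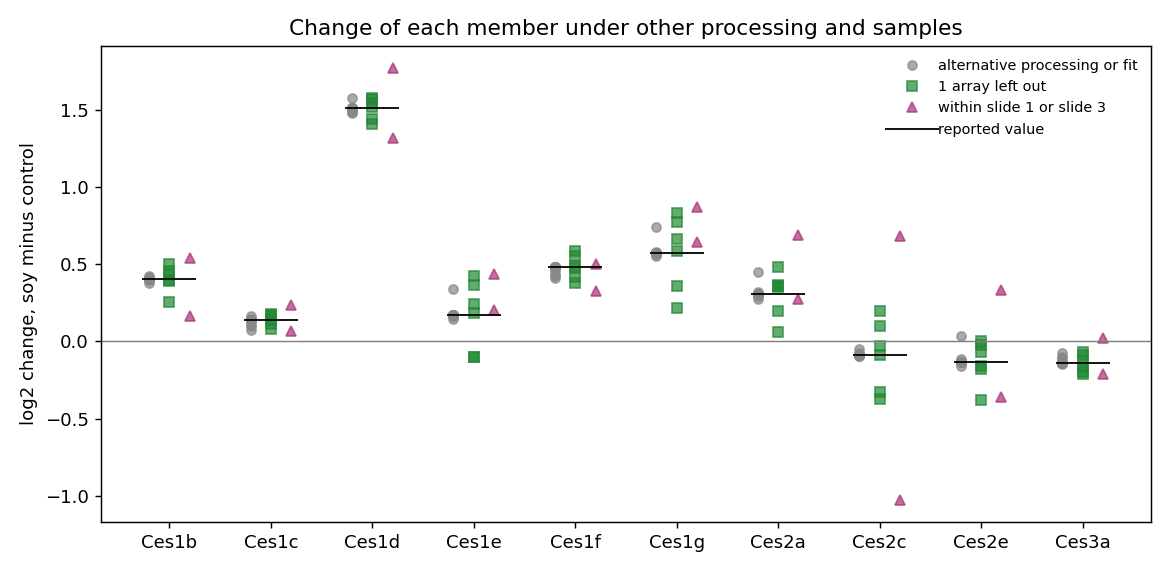
Log2 change (soy minus control, vertical axis) of each member as reported (black line), under other processing or another model (grey circles), with 1 array left out (green squares) and within slide 1 or slide 3 (purple triangles). Ces1d stayed between 1.32 and 1.78, and Ces2c spread from -1.03 to 0.68.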

How the data were processed

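RNA from 6 livers was measured on 6 arrays, 3 control and 3 soy. The authors deposited Agilent Feature Extraction 11.5.1.1 output, which gives every spot a median intensity and a local background, not scaled between arrays, with marks for outlier, saturated and well above background spots. They also deposited log2 values for the same arrays, whose steps are not given in the sources used here.

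As in the study's methods, median intensities were the input, and the test was limma (version 3.58.1 in R 4.3.3 here) with Benjamini-Hochberg adjustment. Testing all 56605 probes, background correction (normexp, offset 50), quantile normalization, log2 and averaging of spots per probe were choices made here, since the study's own steps are not given in the sources used here. Outlier spots were left out. Single within-array differences were tested by exact permutation. Intervals are at 95%. Symbols came from RefSeq accessions (GRCm38.p6, 32994 probes, 58.3%), whereas the arrays are annotated on another build. Arrays lie on 3 slides, and slide matches scan. Correlations of deviations between same-numbered arrays were 0.12, -0.06 and 0.11. With 3 arrays in each group these values cannot decide whether the numbers pair mice. Replicates are taken as separate mice, as the series states.

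The members and lists were chosen with earlier results of these data known. Named genes were all members with every probe, all other carboxylesterase genes on the array, list genes that passed, and abundant or undetected tissue markers; Apob, Mttp, Ephx2, Pnpla2, Aadac, Abhd5, G0s2, Hilpda, Lep, Cfd, Retn, Alb, Ttr, Apoa1 and the named transcription factors were added after their values were seen. Alternatives were other background corrections, signals and normalizations, a filter on dim probes, outliers kept, trend and robust settings, replicate or slide as a block, the deposited values, a gene's probes averaged, a call by adjusted p only, and leaving out each array in turn. Plots were drawn with matplotlib 3.10.9.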

Additional observations from a re-analysis of the deposited data

How the results depend on the processing

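Ces1d was higher in soy under every alternative tried. Under other processing or another model its change was 1.48 to 1.58, and it passed (adjusted p 0.00177 to 0.0484) except with the slide block (0 members passing, adjusted p = 0.0799). With 1 array left out its change was 1.41 to 1.58, and it passed except without soy 3 (0.0501), so that 0 to 1 members and member probes passed. The count over all probes, 198, was 77 with an offset of 16, 13138 with the processed signal scaled to its 75th percentile, which changes signal and scaling together, 299 with the 75th-percentile shift of the median signal, 493 among the 32376 probes that cleared background throughout either group, 77 with the replicate number as a block and 24 with the slide block, and 23 to 199 with 1 array left out (103, 78 and 208 without control 1, 2 and 3, and 48, 25 and 29 without soy 1, 2 and 3, when the others were normalized again). With the processed and with the median signal, both scaled to the 75th percentile, the median of all probes was 0.13 and 0.13, against -0.0029 and 0.02 for probes well above background on all arrays, to which the members belong; their higher share of passing probes was 90.8% and 67.6%, against 59.6%. Whether the replicate numbers pair mice could not be decided, and with them as a block Ces1d passed (adjusted p = 0.0484, limma). The median change of the members stayed between 0.21 and 0.24, and between 0.16 and 0.39 with 1 array left out.

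Signs turned only for members whose 95% interval holds 0. Ces2e became 0.0366 with the slide block, 0.33 within slide 1 and 0.0022 without soy 3 (-0.38 to 0.0022 over the left-out arrays, 0.0026 normalized again); Ces2c became 0.68 within slide 1, 0.20 without control 3 and 0.10 without soy 3 (-0.38 to 0.20); Ces3a became 0.0246 within slide 1; Ces1e became -0.10 without control 3 and without soy 1 (-0.10 to 0.42). The difference between Ces1d and the other Ces1 members stayed between 1.14 and 1.17 (1.01 to 1.31 with 1 array left out) with exact permutation p of 0.10 as reported, 0.167 with the slide block and 0.25 with the replicate block, none of which could pass. The limma fit on centred arrays (1.16, adjusted p = 0.00742) was chosen after seeing the data, for the member already known to pass. Causes were not tested.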
